A study of Homo sapiens with 4 samples.

Results

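The EGF family ligands and the ERBB receptors were examined in SAS, an established human line from a squamous carcinoma of the mouth, in which HAI-1 had been silenced. The set was named gene by gene: the ligand genes TGFA, AREG, EREG, BTC, HBEGF, EPGN and NRG1 and the receptor genes EGFR, ERBB2 and ERBB3. Of these 10 genes, 9 were found among the 19896 gene symbols of the array, with 35 of its 54613 probe sets outside the controls. No probe set carried the symbol EPGN. A probe set is a group of short probes that reads 1 transcript or transcript form.

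Both groups were SAS cells infected with a retrovirus made from the vector pSINsi-hU6, which expresses a short hairpin RNA, and both were grown in RPMI1640 with 10% FBS. In the knockdown group (2 arrays) the hairpin was directed at SPINT1, the gene of HAI-1. In the control group (2 arrays) it carried a scrambled order of the same bases. Each array was hybridised with biotin-labelled RNA made from 6 µg of total RNA. A single hairpin against SPINT1 was used, in a single line, and whether the infected cells were a pool or a clone is not given in the sources used here. The hairpin sequences are shown because they set the groups apart. Capitals mark the 12 of 21 positions at which they differ.
SPINT1 hairpin target: gggCAggCATAGAcTTgaAgG
scrambled control: gggACggAGATTTcACgaGgA
Both sequences hold 6 A, 3 C, 9 G and 3 T.

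The ligands of this family are made as membrane-anchored precursors, and their EGF domain acts once it is cut from the cell surface by metalloproteases, or on a touching cell. TGFA, AREG and EPGN bind EGFR, EREG, BTC and HBEGF bind EGFR and ERBB4, and NRG1 binds ERBB3 and ERBB4. Binding joins receptors in pairs, in which ERBB2, which has no ligand of its own, is the favoured partner and ERBB3, whose kinase is weak, recruits PI3-kinase. In squamous epithelium this system drives growth and migration of keratinocytes, and EGFR is often raised in squamous carcinomas of the head and neck. HAI-1 sits in the epithelial cell membrane, where it inhibits serine proteases.

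SPINT1 itself gave MAS5 signals of 135 and 282 on knockdown arrays 1 and 2, against 1451 and 1445 on control arrays 1 and 2 (6.90-fold lower, adjusted p = 4.2e-05 by limma). The reading of 135 was called absent, and a second SPINT1 probe set, absent on all 4 arrays, did not pass (adjusted p = 0.79). MAS5 signals are linear probe set intensities, formed by the authors, with a detection call of present, marginal or absent for each. Between 45.6% and 48.1% of probe sets were present per array. Of 10 squamous epithelium markers, each was present on knockdown arrays 1 and 2, and 9 (all but KRT6A) on control arrays 1 and 2, and their summed signals were 76802 and 86562 on the knockdown arrays and 80613 and 77470 on the control arrays. These sums rest on a few bright genes and do not show the single markers: of 9 tested, KRT14 (16.7-fold, adjusted p = 6.7e-07) and KRT5 (2.62-fold, adjusted p = 0.00027) rose, DSG3 (2.03-fold, adjusted p = 0.00066) and SFN (1.34-fold, adjusted p = 0.037) fell, and 5 did not pass. Markers of other cell types were partly present: 3 and 3 of 8 fibroblast markers were present on the knockdown arrays and 2 and 1 on the control arrays, with summed signals of 1112 and 1193 against 880 and 784, and FBLN1 rose (1.74-fold, adjusted p = 0.0048). FBLN1 alone read 704 and 805 on the knockdown arrays and 396 and 457 on the control arrays. The other fibroblast marker tested, COL1A1, did not pass (log2 change -0.19, adjusted p = 0.63), and 6 lay under the filter on low signals. Summed leukocyte markers reached 996 and 820 on the knockdown arrays and 945 and 809 on the control arrays, with PTPRC, CD3E and MS4A1 present on no array, CD14 present on all 4, and LAPTM5 higher in knockdown cells (2.52-fold, adjusted p = 0.023). CD14 and CD53 did not pass (adjusted p = 0.46 and 0.82). Summed endothelial markers reached 1001 and 1370 on the knockdown arrays and 672 and 651 on the control arrays, with VWF, KDR and CLDN5 present on none, and CDH5 (1.93-fold, adjusted p = 0.021) and TEK (1.99-fold, adjusted p = 0.029) higher in knockdown cells. The other endothelial marker tested, PECAM1, did not pass (log2 change -0.18, adjusted p = 0.77). CDH5 alone read 572 and 1091 on the knockdown arrays and 410 and 396 on the control arrays. The part of these differences in the results below was not tested.

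The comparison asked which ligand and receptor transcripts differed when HAI-1 was lowered. By the brightest probe set of each gene, 3 of the 9 genes rose in knockdown cells (TGFA, AREG and ERBB3), 3 fell (EREG, BTC and EGFR) and 3 did not pass the test (HBEGF, NRG1 and ERBB2). The test was limma's moderated test on log2(signal + 16), with p-values adjusted by the Benjamini-Hochberg method over all 27307 probe sets tested and a threshold of 0.05. The 6 genes called were 66.7% of the 9, where 19.2% of all 12574 genes tested were called, 8.69% as higher and 10.5% as lower. Brightest means highest in mean log2 signal on the 4 arrays. All fold changes are on the log2(signal + 16) scale, which understates the change of dim probe sets. In cultured cells measured in bulk, fewer cells that make a transcript and less of it per cell cannot be told apart.

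Over probe sets in place of genes, 23 of the 35 passed the filter on low signals, and 4 rose, 4 fell and 15 did not pass, 34.8% called against 15.5% of all probe sets tested (7.24% higher and 8.3% lower). The other 12 lay under the filter, a mean signal of 55.4. The 2 knockdown arrays did not overlap the 2 control arrays for 17 of the 23, of which 6 were higher and 11 lower in knockdown cells, and the same held for 57.6% of all probe sets tested. The median log2 change of the 23 was -0.11, beside 0.04 over all probe sets tested, and the median size of the change without its sign was 0.45 beside 0.26. All 8 calls were on probe sets present on all 4 arrays, a state shared by 15 of the 35, while 13 of the 35 were present on none.

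**Figure D1:**
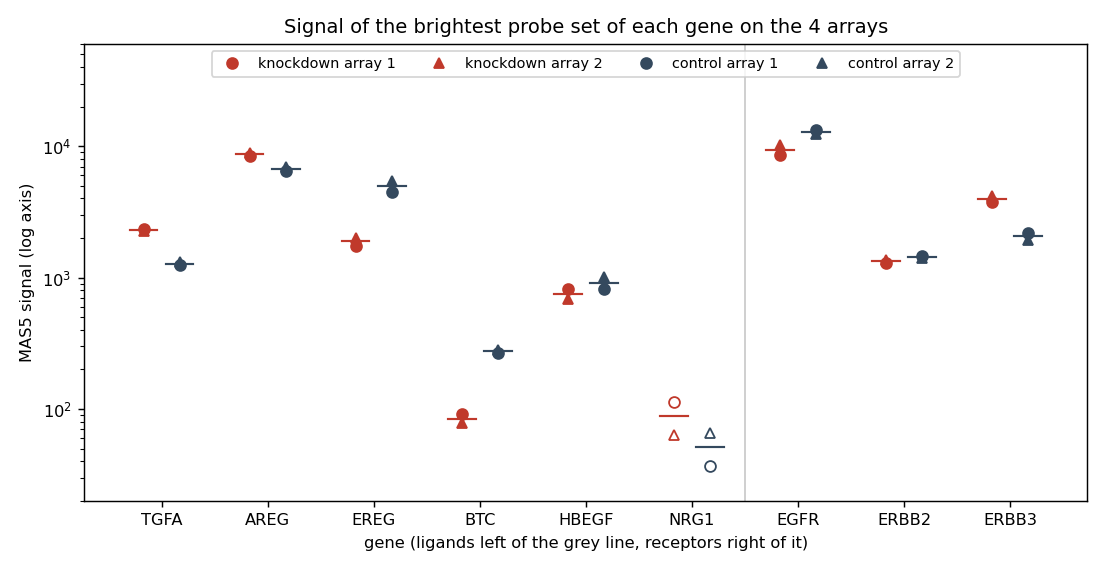
MAS5 signal (vertical log axis) of the brightest probe set of each of the 9 genes, with ligands left of the grey line and receptors right of it. Red symbols are the 2 knockdown arrays and dark symbols the 2 control arrays (circles array 1, triangles array 2), bars are the group means, open symbols were not called present, and signals of different genes come from different probes and are not on 1 scale. The knockdown arrays lie above the control arrays for TGFA, AREG and ERBB3 and below them for EREG, BTC and EGFR.

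Among the ligands, 4 passed the test, and they moved in both directions. Transforming growth factor alpha (TGFA) and amphiregulin (AREG) rose, whereas epiregulin (EREG) and betacellulin (BTC) fell. AREG, EREG and BTC share a short stretch of chromosome 4. The region from 250 bases before to 50 bases after the annotated start of each of these 4 genes is shown, since they are the ligands that moved. The sequences are those of RefSeq on GRCh38.p14, read 5′ to 3′ along the gene, and capitals mark matches to any of 6 motifs searched on both strands.
TGFA: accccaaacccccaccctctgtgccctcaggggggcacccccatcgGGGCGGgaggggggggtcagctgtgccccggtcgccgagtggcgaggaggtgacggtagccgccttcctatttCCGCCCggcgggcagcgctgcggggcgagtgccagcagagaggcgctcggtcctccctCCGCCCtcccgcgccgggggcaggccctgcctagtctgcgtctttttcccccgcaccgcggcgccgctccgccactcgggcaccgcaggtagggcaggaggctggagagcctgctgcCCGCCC
AREG: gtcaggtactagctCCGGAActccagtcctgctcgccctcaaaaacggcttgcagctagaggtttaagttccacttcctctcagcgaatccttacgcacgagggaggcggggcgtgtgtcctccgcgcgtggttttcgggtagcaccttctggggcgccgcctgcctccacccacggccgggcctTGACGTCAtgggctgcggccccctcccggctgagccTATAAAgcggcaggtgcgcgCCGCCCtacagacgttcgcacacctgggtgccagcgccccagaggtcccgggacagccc
EREG: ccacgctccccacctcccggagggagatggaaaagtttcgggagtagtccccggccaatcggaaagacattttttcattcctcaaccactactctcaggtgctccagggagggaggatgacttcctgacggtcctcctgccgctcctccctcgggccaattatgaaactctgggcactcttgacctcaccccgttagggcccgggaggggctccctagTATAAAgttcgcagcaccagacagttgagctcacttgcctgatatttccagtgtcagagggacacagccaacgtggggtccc
BTC: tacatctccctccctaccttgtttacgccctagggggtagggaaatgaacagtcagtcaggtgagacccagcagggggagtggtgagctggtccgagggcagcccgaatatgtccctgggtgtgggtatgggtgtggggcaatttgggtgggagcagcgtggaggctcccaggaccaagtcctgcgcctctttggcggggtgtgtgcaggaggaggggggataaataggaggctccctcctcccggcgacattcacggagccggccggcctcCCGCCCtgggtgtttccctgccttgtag

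In GRCh38.p14 these stretches are chr2:70553777-70554076 on the minus strand for TGFA, chr4:74444886-74445185 on the plus strand for AREG, chr4:74364895-74365194 on the plus strand for EREG and chr4:74794474-74794773 on the minus strand for BTC. The TATA box (TATAAA), held by 11.5% of 35116 promoters of the same length, was found 29 bases before the start in AREG and 32 bases before it in EREG. The full cyclic AMP response element (TGACGTCA, 1.85% of promoters) was found in AREG, 65 bases before the start, and in none of the other 3. TGFA held 4 GC boxes (GGGCGG, 45% of promoters), AREG 1 and BTC 1, and AREG held 1 ETS core (CCGGAA, 17.2%). The AP-1 motif (TGANTCA, 7.71%) and the E-box (CACGTG, 7.26%) were in none of these 4 windows. No motif searched was held by both ligands that rose and by neither that fell, or the reverse. A match describes the letters and is not a bound site.

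TGFA, the ligand that carcinoma cells often make for their own EGFR, had signals of 2338 and 2248 in knockdown cells, against 1241 and 1304 in control cells (205016_at). Both knockdown arrays lay far above both control arrays. The log2 change was 0.84 (SE 0.11, 1.79-fold higher, adjusted p = 0.00043), and the call held under all 12 other settings of the fit to single probe sets. For the members these 12 do not include the mean over a gene's probe sets, which is given further below. Of the other TGFA probe sets, 205015_s_at read 102 and 123 in knockdown cells and 33.9 and 89.6 in control cells, and its log2 change of 0.82 did not pass (adjusted p = 0.18). The third, 211258_s_at, read 206 and 33.8 in knockdown cells and 86.4 and 77.4 in control cells, so that the knockdown arrays lay on either side of the controls (adjusted p = 0.92). Its sign was set by single arrays: the log2 change was -0.97 without knockdown array 1 (adjusted p = 0.16) and 1.18 without knockdown array 2 (adjusted p = 0.03).

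AREG, an EGFR ligand of low affinity that keratinocytes make in large amounts, had signals of 8438 and 8886 in knockdown cells, against 6475 and 6906 in control cells (205239_at). The groups did not overlap, but the step between them was small. The log2 change was 0.37 (SE 0.10, 1.29-fold higher, adjusted p = 0.033). The call was lost without control array 1 (adjusted p = 0.33), without control array 2 (0.17), with no filter (0.1) and with no variance trend (0.17). The probe set aligns to 2 places on chromosome 4 in the deposited annotation, 75529716 to 75539583 and 75699652 to 75709502, so its signal is uncertain as to the copy. The other AREG probe set, 215564_at, aligns to the opposite strand and was absent on all 4 arrays.

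EREG, which binds EGFR and ERBB4 with low affinity, had signals of 1752 and 2015 in knockdown cells, against 4517 and 5478 in control cells (205767_at, chromosome 4, 75449723 to 75473341, plus strand). Every knockdown value was below either control value by a wide margin. The log2 change was -1.40 (SE 0.12, 2.63-fold lower, adjusted p = 3.7e-05), the smallest adjusted p among the 23 probe sets tested, and it held under all 12 other settings. The dimmer probe set 1569583_at read 103 and 154 in knockdown cells and 152 and 292 in control cells, with the groups overlapping by a narrow margin. Its log2 change of -0.68 did not pass (adjusted p = 0.18), though it did without control array 1 (-1.12, adjusted p = 0.048).

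BTC, a ligand of EGFR and ERBB4, had signals of 90.8 and 78.0 in knockdown cells, against 268 and 281 in control cells (241412_at, chromosome 4, 75888995 to 75889451, minus strand). Both groups were tight and far apart, and the probe set was present on all 4 arrays. BTC thus changed by -1.53 on the log2 scale (SE 0.24, 2.90-fold lower, adjusted p = 0.0014), and the call held under all 12 other settings. The other BTC probe set, 207326_at, read 59.6 and 75.4 in knockdown cells and 111 and 83.1 in control cells. It lay lower on both knockdown arrays too, but its log2 change of -0.43 did not pass (adjusted p = 0.4).

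HBEGF, the heparin-binding ligand of EGFR and ERBB4, had signals of 813 and 692 in knockdown cells, against 823 and 1003 in control cells (203821_at). The higher knockdown array came within a narrow step of the lower control array, without overlap. The log2 change of -0.27 (SE 0.15, 95% interval -0.59 to 0.05) did not pass (adjusted p = 0.25). A further probe set, 38037_at, read 276 and 270 in knockdown cells and 349 and 410 in control cells, without overlap, and did not pass either (log2 change -0.45, adjusted p = 0.13). The other 2 HBEGF probe sets were absent on all 4 arrays, and 1 of them aligns to the opposite strand.

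NRG1, the ERBB3 and ERBB4 ligand with many transcript forms, was near the limit of detection. Of its 6 probe sets 2 passed the filter, and both were absent on all 4 arrays. The first of these, 206237_s_at, read 113 and 63.4 in knockdown cells and 36.6 and 65.9 in control cells (log2 change 0.62, adjusted p = 0.31). The second, 208230_s_at, read 105 and 85.2 in knockdown cells and 45.9 and 38.7 in control cells, without overlap (log2 change 0.93, adjusted p = 0.088). It passed without the variance trend (adjusted p = 0.046). Of the 4 under the filter, 208232_x_at was present on 1 array of each group and the other 3 on none. In the deposited annotation 208232_x_at aligns to the minus strand, whereas every other NRG1 probe set aligns to the plus strand.

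Among the receptors ERBB3 rose, EGFR fell by a smaller step and ERBB2 did not pass. ERBB3, the receptor of NRG1 that recruits PI3-kinase, had signals of 3774 and 4166 in knockdown cells, against 2176 and 1945 in control cells (226213_at, chromosome 12, 54782948 to 54783558). Both knockdown arrays stood well above both control arrays. The log2 change was 0.94 (SE 0.11, 1.92-fold higher, adjusted p = 0.00025) and held under all 12 other settings. A second probe set, 202454_s_at, moved alike, with 1839 and 2365 in knockdown cells and 1158 and 1115 in control cells (log2 change 0.87, SE 0.13, adjusted p = 0.0013, and 0.058 without the variance trend). The dim probe sets 1563253_s_at and 215638_at had log2 changes of -0.04 each (adjusted p = 0.95 each). The remaining ERBB3 probe set, 1563252_at, lay under the filter and was absent on every array.

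EGFR, the receptor of every ligand above except NRG1, had signals of 8553 and 10133 in knockdown cells, against 13269 and 12286 in control cells (201983_s_at, chromosome 7, 55054218 to 55243266, plus strand). The groups did not overlap. This was a change of -0.46 on the log2 scale (SE 0.12, 1.37-fold lower, adjusted p = 0.023). The second bright probe set, 201984_s_at, read 3659 and 3586 in knockdown cells and 4646 and 5132 in control cells, again without overlap (log2 change -0.43, SE 0.10, adjusted p = 0.017). Neither call held without control array 1 (adjusted p = 0.25 and 0.074), without control array 2 (0.11 and 0.22), with no filter (0.1 and 0.063) or with no variance trend (0.15 and 0.14).

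The 4 other EGFR probe sets tested did not pass, with log2 changes of -0.54 for 211607_x_at, -0.31 for 211551_at, -0.29 for 210984_x_at and 0.30 for 1565484_x_at, the last of them not called present on any array. The remaining EGFR probe sets, 1565483_at and 211550_at, lay under the filter and were absent on every array. The first read higher in knockdown cells, 109 and 41.8 against 24.03 and 11.9 in control cells, and the second overlapped. Genes beside EGFR moved in the direction of its 2 called probe sets. Here and below, neighbours are counted only from probe sets with 1 alignment and 1 gene name. All 10 such probe sets, of 6 other genes, that passed the filter within 2 Mb of EGFR fell, with a median log2 change of -0.72. Among them SUMF2 changed by -0.84, NIPSNAP2 by -0.82, LANCL2 by -0.76 and -1.03 on its 2 probe sets and SEC61G by -0.42. The neighbours' log2 changes ran from -1.09 to -0.42, a range that takes in the 2 called EGFR values. The part of the stretch in the EGFR values was not tested.

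ERBB2, the receptor without a ligand, had signals of 1302 and 1357 in knockdown cells, against 1459 and 1408 in control cells (216836_s_at). The knockdown arrays were lower by a narrow step, and the log2 change of -0.11 (SE 0.11) did not pass (adjusted p = 0.57). Its 95% interval ran from -0.35 to 0.14, so the data leave room for a change of that size in either direction. The other 2 ERBB2 probe sets lay under the filter.

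**Figure D2:**
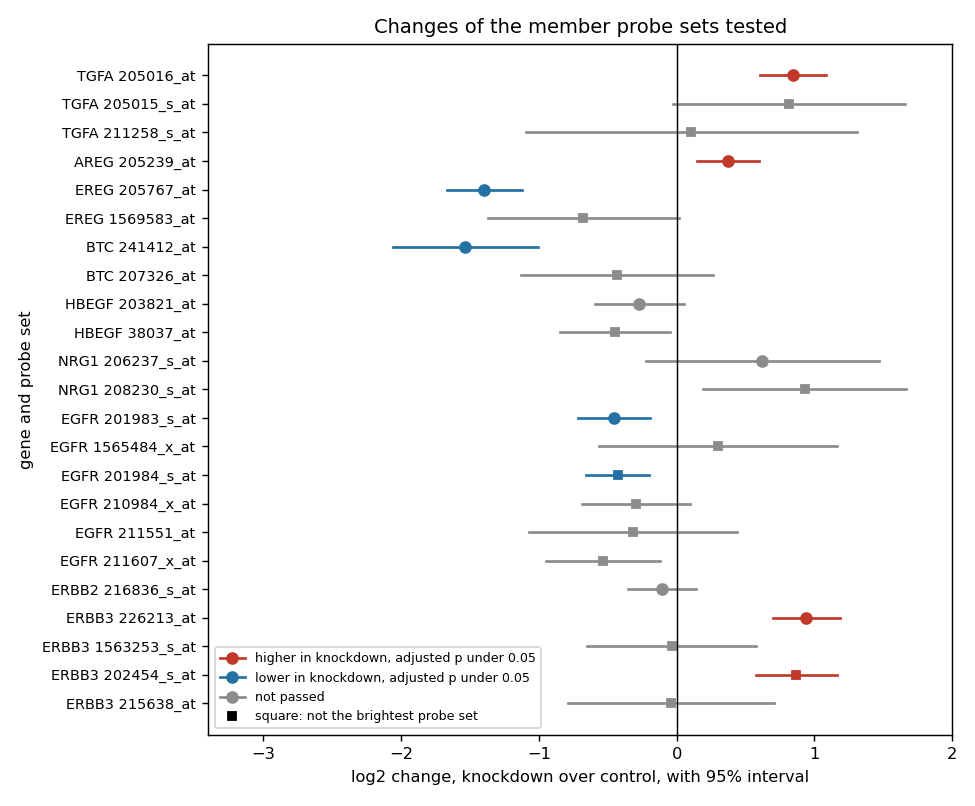
Log2 change, knockdown over control, of the 23 probe sets of the family that passed the filter, with bars for the 95% interval of the limma fit, colours for the call and squares for probe sets other than the brightest of a gene. EREG and BTC each have 1 probe set far below 0, ERBB3 has 2 and TGFA 1 clearly above 0, and the dimmer probe sets of the same genes have wide intervals that reach 0.

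Around the other 5 called genes the neighbours lay on both sides of 0. Within 2 Mb of ERBB3, 115 probe sets of other genes had a median log2 change of 0.01, with 58 above 0 and 57 below, and of these 12 rose and 2 fell. The 12 include 5 probe sets of RBMS2, with log2 changes from 0.83 to 1.51. Around TGFA the median of 47 probe sets was 0.14, with 4 that rose and 5 that fell. Around EREG the median of 31 probe sets was -0.01, with 1 that rose and 6 that fell, and around BTC that of 33 was 0.02, with 2 that rose and 6 that fell. Around AREG the median of 33 was -0.16, with 1 that rose and 7 that fell. EREG and BTC count among the neighbours of AREG, and each counts among the falls near the other. AREG 205239_at, which rose, aligns to 2 places, so it is not counted near EREG or BTC. The windows of these genes on chromosome 4 share most of their probe sets, so their counts are not separate. Over all probe sets tested, 7.24% rose and 8.3% fell.

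**Figure D3:**
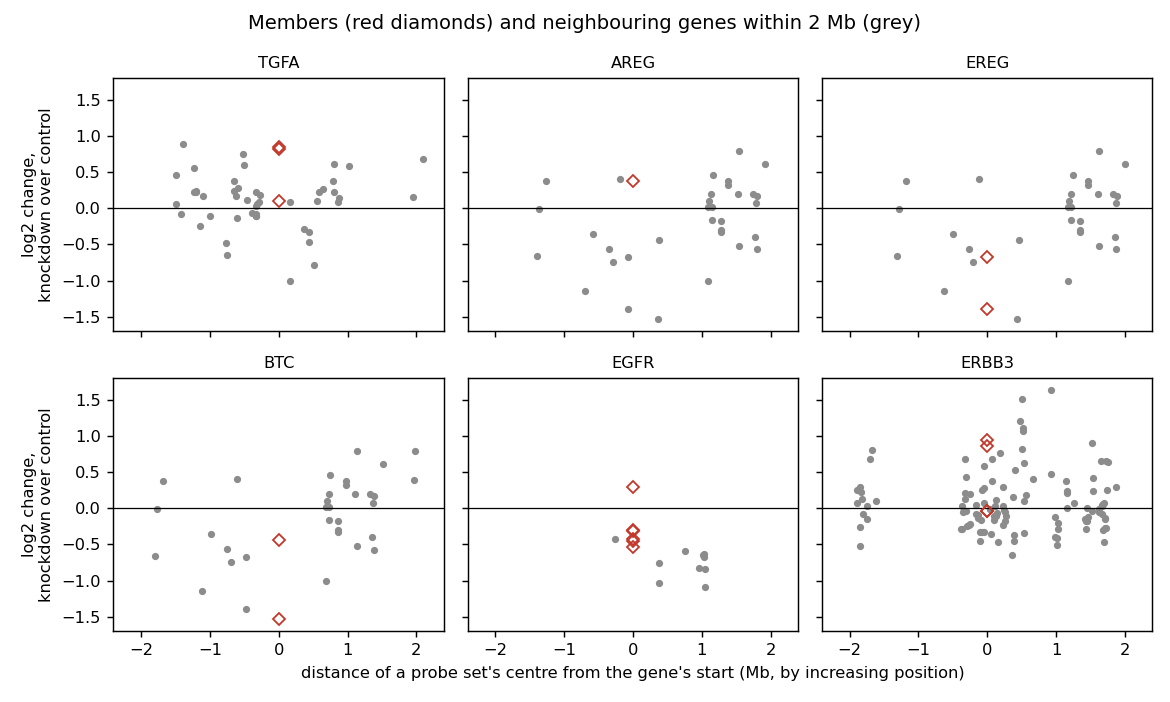
Log2 change, knockdown over control (vertical axis), against distance in Mb from the start of each called gene (horizontal axis) for that gene's own probe sets (red diamonds) and those of genes within 2 Mb (grey points). Around EGFR every grey point is below 0, and in the other 5 panels points lie on both sides of 0.

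When all probe sets of a gene were averaged, a setting chosen after the data were seen, EREG (log2 change -1.04, adjusted p = 0.012) and BTC (-0.98, adjusted p = 0.015) still fell. ERBB3 (0.53, adjusted p = 0.063), TGFA (0.59, adjusted p = 0.16), AREG (0.30, adjusted p = 0.21) and EGFR (-0.05, adjusted p = 0.86) no longer passed. That average takes in the probe sets that were absent or dim, described above.

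The remaining genes of the family were dim. EGF, NRG2, NRG3 and NRG4 were present on no array, and ERBB4, a receptor of EREG, BTC, HBEGF and NRG1, was present on 1 array of each group, with signals of 39.0 and 16.2 in knockdown cells and 33.4 and 41.4 in control cells. All 5 lay under the filter.

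Across lists of 86 further genes of the pathway, 80 were tested, and 9 rose, 10 fell and 61 did not pass, 23.8% called against 19.2% of all genes. The metalloproteases that free the ligands, and the proteins that carry them, showed no call: 0 of 10 genes passed limma's adjusted threshold, and 1 (RHBDF1) had an unadjusted p under 0.05. ADAM17, which cuts TGFA, AREG, EREG and HBEGF from the cell surface, read 2818 and 2752 in knockdown cells and 2664 and 3165 in control cells, a log2 change of -0.06 with a 95% interval of -0.31 to 0.19. ADAM10, which sheds BTC and EGF in mouse cells, had a log2 change of -0.04 (interval -0.37 to 0.29). RHBDF1 and RHBDF2, the inactive rhomboids that bring ADAM17 to the cell surface, had log2 changes of -0.33 (adjusted p = 0.16) and -0.32 (adjusted p = 0.33), and FRMD8, which stabilises them, one of 0.14 (adjusted p = 0.51). The rhomboid protease gene RHBDL2 had 0.52 (adjusted p = 0.31). The related metalloprotease genes ADAM8, ADAM9, ADAM12 and ADAM15 lay between -0.16 and 0.13, and ADAM19 was under the filter.

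Among 23 genes that inhibit the receptors or control their turnover, 4 rose, 3 fell and 16 did not pass, 30.4% called against 19.2% of all genes. ERRFI1 (MIG6), a feedback inhibitor that binds the kinase domain of EGFR and of ERBB2, had signals of 8471 and 8054 in knockdown cells, against 1884 and 1978 in control cells. The arrays of each group were close to each other and the groups far apart. ERRFI1 changed by 2.09 on the log2 scale (SE 0.10, 4.25-fold higher, adjusted p = 7e-07). The call held under all 13 other settings, which for list genes include the mean over a gene's probe sets. Within 2 Mb of ERRFI1 the median log2 change of 54 probe sets was 0.12, with 34 above 0 and 20 below, and of these 6 rose and 0 fell. The part of these neighbours in the ERRFI1 value was not tested.

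The ubiquitin ligase genes CBLB (log2 change 0.85, adjusted p = 0.004) and CBLC (0.67, adjusted p = 0.0095), whose products mark active EGFR for degradation, rose. SOCS4, which promotes loss of EGFR, fell (-0.55, adjusted p = 0.0088), as did SH3KBP1 (-0.47, adjusted p = 0.013), a CBL-binding adaptor, and EPS15 (-0.45, adjusted p = 0.014), an endocytic adaptor first found as an EGFR substrate. Without control array 1 the adjusted p was 0.075 for CBLC, 0.083 for SOCS4 and 0.077 for EPS15, and without control array 2 it was 0.17 for SH3KBP1 and 0.16 for EPS15. A second probe set did not pass for CBLB (log2 change 0.21, adjusted p = 0.72), SOCS4 (-0.015, adjusted p = 0.98) or EPS15 (-0.33, adjusted p = 0.093). SH3KBP1 had 2 others, of which 1 fell (-0.54, adjusted p = 0.0054) and 1 did not pass (-0.57, adjusted p = 0.17).

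Of 31 adaptors and kinases, 1 rose, 3 fell and 27 did not pass, 12.9% called against 19.2% of all genes. NRAS, a RAS protein, fell on its brightest probe set (-0.76, adjusted p = 0.00071) and did not pass on another (-0.15, adjusted p = 0.4). VAV2, a guanine nucleotide exchange factor, fell (-0.56, adjusted p = 0.012), and so did the transcription factor gene STAT3 (-0.48, adjusted p = 0.022), and both calls were lost without control array 1 (adjusted p = 0.14 and 0.19), that of STAT3 also without knockdown array 1 (0.059). A second VAV2 probe set did not pass (-0.29, adjusted p = 0.36), nor did the 2 others of STAT3 (-0.013, adjusted p = 0.96, and -0.30, adjusted p = 0.11).

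Targets of the ERK kinases moved in both directions: of 16 genes, 4 rose, 4 fell and 8 did not pass, 50% called against 19.2% of all genes. DUSP6, the phosphatase that inactivates ERK and is induced by it, had signals of 858 and 1205 in knockdown cells, against 2354 and 2208 in control cells. All 3 of its probe sets fell, the brightest by a log2 change of -1.15 (SE 0.15, 2.22-fold lower, adjusted p = 0.00047). FOS, an immediate early transcription factor, read 1151 and 1275 in knockdown cells and 2285 and 2677 in control cells (log2 change -1.02, adjusted p = 0.00026). EGR1, another such factor, read 5206 and 6379 in knockdown cells and 10431 and 9688 in control cells (-0.80, adjusted p = 0.0011, and 0.06 without the variance trend), and its 2 other probe sets fell as well.

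Among the rises in this list, SPRY2 (0.68, adjusted p = 0.011) and SPRED2 (0.44, adjusted p = 0.018) encode inhibitors of RAS signalling, IER3 (0.54, adjusted p = 0.004) an early response protein. Without control array 2 the adjusted p was 0.066, 0.086 and 0.054 for these genes in that order, and without control array 1 it was 0.054, 0.18 and 0.057. All 9 tested probe sets of other genes, each with 1 alignment, within 2 Mb of SPRY2 lay above 0. Their median log2 change was 0.44, and 5 of them rose. The part of that stretch in the SPRY2 value was not tested.

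**Figure D4:**
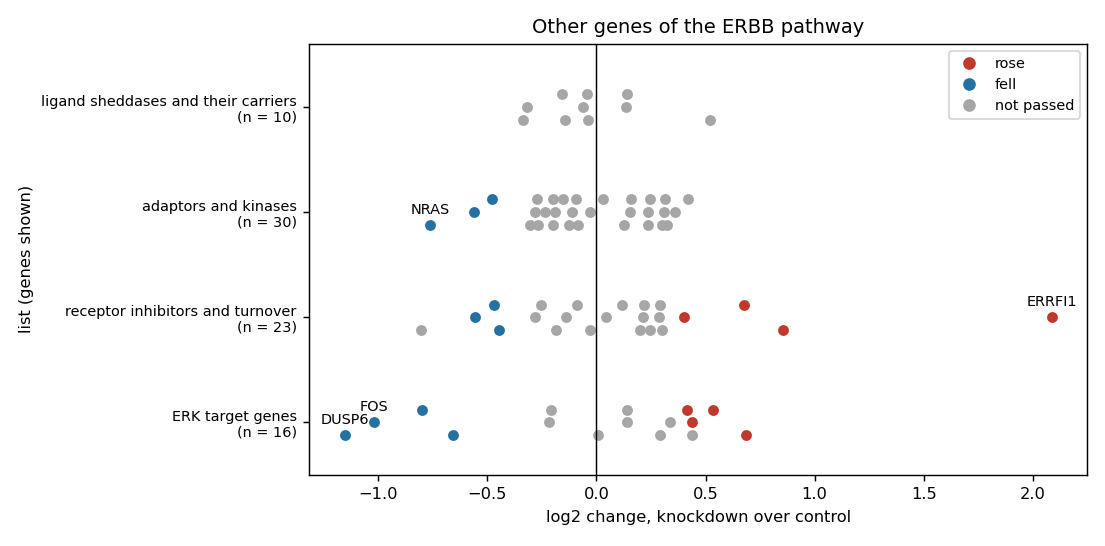
Log2 change, knockdown over control, of the tested genes of the pathway lists by their brightest probe set, 1 adaptor or kinase gene left out, with colours for the call and names for ERRFI1, DUSP6, NRAS and FOS. ERRFI1 at 2.09 lies highest, DUSP6 at -1.15 and FOS at -1.02 lie lowest, and no sheddase gene is called.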

How the data were processed

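The authors deposited MAS5 signals, linear intensity values per probe set with a 2% trimmed mean near 500 on each array, per the submitters' processing notes and the table itself, with detection p-values and calls. The deposited log2 values are the same signals centred per probe set on its median: recomputation gave all 54675 rows within 1e-05, and they were not tested. The genome build of the alignments is not given in the sources used here, so coordinates of probe sets are those of the deposited annotation, and GRCh38.p14 coordinates belong to the RefSeq promoters alone.

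Member probe sets and those of SPINT1 were taken by the gene symbol of the deposited annotation. For lists, neighbours and the brightest probe set of a gene, probe sets were named through Entrez numbers. The values analysed were log2(signal + 16), not scaled again. Probe sets whose mean on that scale reached the median over all 54613 (a signal of 55.4) were tested with limma 3.58.1 in R 4.3.3 (lmFit, eBayes with a trend, two-sided, Benjamini-Hochberg, threshold 0.05, 2 residual and 9.04 prior degrees of freedom). The script was tested on simulated data. With 2 arrays against 2, an exact two-sided permutation test has a smallest p of 0.333. No label states that the arrays are from separate cultures. The p-values therefore measure only how far these samples differ among themselves, which may be technical, and the number of arrays limits the precision.

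Members and lists were chosen with earlier results of these data known, and no p was adjusted over them alone. Genes named are SPINT1, all members, up to 3 rises and 3 falls per list by moderated statistic, and all genes of lists of up to 11 genes, except 1 gene that is not reported here and stays in the counts. Alternatives were the pseudocount (1 and 64), no filter, presence on at least 2 arrays as the filter, median centring, quantile normalization, no variance trend, a replicate block, leaving out each array, and, added after the data were seen for the members, the mean over a gene's probe sets. The array numbers 1 and 2 are shared by the groups without a stated link.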

Additional observations from a re-analysis of the deposited data

How the results depend on the processing

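Of 273 values of the 23 member probe sets under other settings, 251 kept both direction and side of the threshold, and 13 of the 23 did so under all settings tried on single probe sets. EREG, BTC, TGFA and ERBB3 kept their calls on their brightest probe sets. Member probe sets that fell numbered 4, and 2 without the filter or without the variance trend, and between 2 and 4 when 1 array was left out, while those that rose numbered between 3 and 5. By the mean over probe sets, 0 member genes rose by limma (2 at an unadjusted p under 0.05), against 3. Over all probe sets, 1977 rose and 2267 fell, against 921 and 1290 without the filter, 630 and 887 without the trend, and 1036 to 2197 and 1164 to 2579 when 1 array was left out, the lowest of these without control array 1. List genes that rose numbered 9, and 3 without the trend, and those that fell 10, with 5 without the filter and 4 without the trend. Leaving out 1 array gave 3 to 11 that rose and 6 to 12 that fell. Of 338 values of the 26 list genes named, 295 kept direction and side and 35 lost their call. With the replicate number as a block, 4 member probe sets rose and 4 fell, and 4365 probe sets were called in all, against 4244. Deviations of same-numbered arrays correlated at -0.026 over 2 pairs, which does not settle whether the numbers mark shared experiments, and they were not used to pair the arrays. With 1 array left out, the lone array of a group is assumed to vary like the others, and log2 changes that crossed 0 ranged from -0.31 to 0.91 for EGFR 1565484_x_at, -0.33 to 0.26 for ERBB3 1563253_s_at, -0.33 to 0.25 for ERBB3 215638_at, -0.97 to 1.18 for TGFA 211258_s_at, -0.15 to 0.41 for ADAM8, -0.10 to 0.017 for ADAM9, -0.16 to 0.086 for ADAM10 and -0.18 to 0.064 for ADAM17. By the mean over probe sets ADAM8 gave -0.16 and FRMD8 -0.015, and STAT3, VAV2, CBLB, CBLC, SOCS4 and SPRED2 missed the threshold (adjusted p from 0.22 to 0.58). The cause was not tested. Dim signals limit NRG1, ERBB4 and the second probe sets of BTC, EREG and TGFA.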
